A study of Homo sapiens with 6 samples.

Results

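The genes described here encode the catalytic and regulatory subunits of protein phosphatase 1 (PP1), a serine/threonine phosphatase. They are the genes whose symbol is PPP1CA, PPP1CB or PPP1CC, or PPP1R followed by a number and, in some cases, a letter from A to L. The rule uses no measured value, but it was chosen with earlier results of these data known. It found 45 of the 58735 genes in the files: 3 catalytic and 42 regulatory, all protein-coding. RNA sequencing was done on MUM2B, a human line that the labels call melanoma, in 2 groups of 3 libraries. The empty vector group (EV) stably carried an empty vector. The LACTB group stably overexpressed LACTB, a protein of the mitochondrial intermembrane space. Both groups were kept in the same serum-containing RPMI medium, and the labels name no other treatment. The sources used here do not give the vector, its promoter, or whether each line was 1 clone or a pool. Nor is it stated that replicates were separate cultures, so the p-values measure the spread between these libraries, which may be technical.

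PP1 works as a holoenzyme. A catalytic subunit with little substrate preference of its own binds a regulatory subunit, mostly through a short docking motif, and the regulatory subunit sets where the enzyme sits, what it dephosphorylates or whether it is active. Known complexes act on myosin light chain, on the translation factor eIF2alpha, on glycogen enzymes and on nuclear proteins. PPP1CA has been linked to LACTB in melanoma through the Hippo effector YAP, which PP1 can dephosphorylate.

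The libraries held 16978799 to 18395631 reads in genes. LACTB itself was at 3.81, 3.39 and 4.71 FPKM (a level scaled to exon length and library size) in EV replicates 1 to 3 and at 173.9, 169.3 and 161.5 FPKM in LACTB replicates 1 to 3, so each library matched its label. All 15 melanocyte markers examined lay under 1 FPKM, with MITF, TYR, MLANA and SOX10 among them, and their summed level was 1.49 to 1.76 FPKM with EV and 1.90 to 2.40 FPKM with LACTB. Of 8 epithelial markers, KRT8, KRT18 and CLDN4 were above 1 FPKM. The epithelial list summed to 345.2 to 356.8 FPKM with EV and 311.1 to 318 FPKM with LACTB. KRT8 and KRT18 make up nearly all of it and fell, while CLDN4 rose from 4.82 to 7.15 FPKM (adjusted p = 0.00239 by limma). The endothelial cadherin CDH5 was the only one of 6 endothelial markers above 1 FPKM; that list summed to 47.7 to 52.5 FPKM with EV and 14.1 to 14.8 FPKM with LACTB. All 8 fibroblast and all 6 leukocyte markers lay under it. Genes of the mitochondrial genome took 3.61% of the reads in EV replicate 3, below the 4.65% to 5.62% of the other libraries. Whether these differences play a part in the subunit values was not tested. In bulk RNA, fewer cells that express a gene and less RNA per cell cannot be told apart.

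Of the 45 subunit genes, 24 averaged 1 FPKM or more and were tested (limma on log2(FPKM + 1), Benjamini-Hochberg adjustment over all 11875 genes tested). With LACTB, 5 of them rose and 7 fell at an adjusted p under 0.05, and 12 did not pass. Together 12 of 24 were called, or 50%, beside 32.0% of all genes tested; 14.8% of all genes rose and 17.2% fell. Without LACTB replicate 2, 4 subunit genes rose and 5 fell, and the genes of all kinds that rose went from 1758 to 1115 and those that fell from 2038 to 1388. The median log2 fold change of the tested subunit genes was -0.050 and that of all genes -0.010. The median size of the change, whatever its direction, was 0.20 on the log2 scale for the subunits and 0.14 for all genes. The groups did not overlap in 14 of the 24 subunit genes, beside 47.4% of all genes. The genes set beside the subunits were not matched for level, and whether level plays a part in these differences was not tested. Among the 6980 genes averaging 5 FPKM or more, 1155 rose and 1605 fell.

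**Figure D1:**
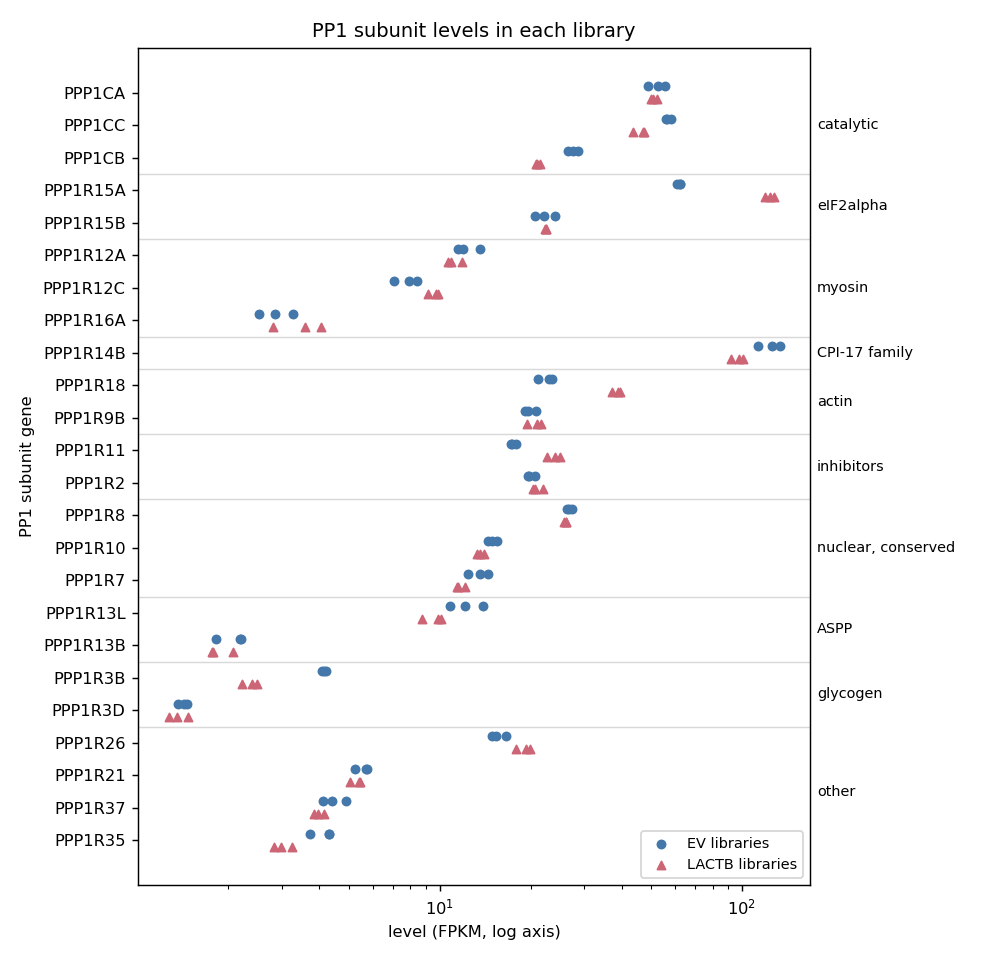
Level of each of the 24 tested PP1 subunit genes in each library (FPKM, log axis), grouped by role; circles are the 3 EV libraries and triangles the 3 LACTB libraries. PPP1R15A is at 61.1 to 62.3 FPKM with EV and the highest of all in the LACTB libraries, while PPP1CB and PPP1CC sit lower in all 3 LACTB libraries.

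Of the 3 catalytic subunits, PPP1CB and PPP1CC fell and PPP1CA did not pass the test. The 3 genes encode nearly the same enzyme and differ most at their ends. The coding sequences of their principal transcripts in GENCODE 29 (990, 981 and 969 bases for PPP1CA, PPP1CB and PPP1CC) were 73.8% to 76.6% identical in pairs, and the longest identical run in any pair was 23 bases. No 100-base stretch of a transcript was shared between them, so reads of that length from 1 of them match none of the others. Their last 60 coding bases are shown because they differ between the subunits while holding the same regulatory site. The capitals mark the 4 codons of a site that cyclin-dependent kinases phosphorylate to inhibit the enzyme.
PPP1CA: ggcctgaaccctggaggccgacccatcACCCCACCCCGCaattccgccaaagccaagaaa
PPP1CB: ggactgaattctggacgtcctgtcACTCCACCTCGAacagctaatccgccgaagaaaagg
PPP1CC: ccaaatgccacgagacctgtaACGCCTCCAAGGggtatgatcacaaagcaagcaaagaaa

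PPP1CA (ENSG00000172531; GRCh38 chromosome 11, 67398183 to 67421183) was at 55.8, 53.0 and 48.8 FPKM in EV replicates 1 to 3 and at 50.9, 50.1 and 52.5 FPKM in LACTB replicates 1 to 3. The LACTB libraries lay inside the range of the EV libraries. The log2 fold change was -0.035 ± 0.055 SE (adjusted p = 0.669 by limma), with a 95% interval of -0.16 to 0.094. Over the alternatives it ranged from -0.086 to 0.0088, and it was above 0 only without EV replicate 1. Of its annotated exon bases, 26.9% overlap exons of CARNS1, RAD9A or TBC1D10C on the opposite strand, and the use of strand in counting is not given in the sources used here.

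PPP1CC (ENSG00000186298; chromosome 12, 110719680 to 110742939), the gamma subunit, was at 56.4, 56.0 and 58.2 FPKM with EV and at 47.5, 47.0 and 43.5 FPKM with LACTB. Every LACTB library lay below every EV library, and the mean was 1.23-fold lower (log2 fold change -0.30 ± 0.046 SE; adjusted p = 0.00345 by limma). PPP1CB (ENSG00000213639; chromosome 2, 28751640 to 28802940), the beta subunit that myosin phosphatase uses, was at 27.7, 26.5 and 28.8 FPKM with EV and at 20.9, 21.4 and 21.0 FPKM with LACTB. It was 1.31-fold lower, again without overlap (log2 fold change -0.37 ± 0.043 SE; adjusted p = 0.000950 by limma). Of its exon bases, 7.99% overlap SPDYA on the same strand.

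The summed FPKM of the catalytic subunit genes was lower in every LACTB library than in every EV library. Summed over the 3 genes, it was 139.8, 135.5 and 135.7 FPKM in EV replicates 1 to 3 and 119.4, 118.6 and 117.0 FPKM in LACTB replicates 1 to 3. The share of PPP1CA in that sum was 38.3% ± 2.09 with EV and 43.3% ± 1.40 with LACTB (SD, n = 3 each). The share of PPP1CB was 20.2% ± 0.875 and 17.8% ± 0.291, and that of PPP1CC 41.5% ± 1.29 and 38.9% ± 1.46. The groups did not overlap in any of these 4 quantities, nor in 47.4% of all single genes tested. The exact two-sided permutation test gave p = 0.1 for each (0.1 after adjustment over the 4), the smallest p that 3 against 3 libraries allow. PPP1CC led the EV libraries and PPP1CA the LACTB libraries. In EV replicate 1 the lead was narrow, at 56.4 FPKM for PPP1CC and 55.8 FPKM for PPP1CA. FPKM levels of different genes compare only roughly, so this order is uncertain. The 3 shares sum to a fixed total, and all 4 quantities come from the same 3 genes, so they are not independent.

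**Figure D2:**
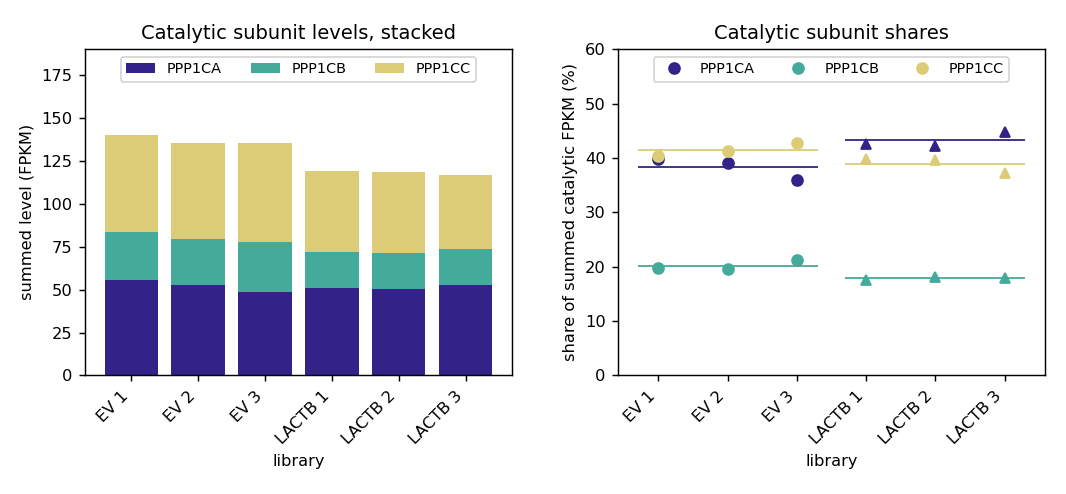
Left, FPKM of PPP1CA, PPP1CB and PPP1CC stacked for each library; right, the share of each in that sum (%), with circles for EV, triangles for LACTB and lines at the group means. The stacks reach 135.5 to 139.8 FPKM with EV and 117.0 to 119.4 FPKM with LACTB, and the PPP1CA share is 42.3% to 44.9% with LACTB and 35.9% to 39.9% with EV.

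The largest change among the regulatory subunits was in the pair that directs PP1 to eIF2alpha. PPP1R15A, known as GADD34, is the stress-induced member and PPP1R15B, known as CReP, the constitutive one; each brings PP1 to phosphorylated eIF2alpha and so restores translation. PPP1R15A (ENSG00000087074; chromosome 19, 48872392 to 48876057) was at 61.1, 62.3 and 62.2 FPKM with EV and at 119.0, 123.5 and 127.3 FPKM with LACTB. It rose 1.99-fold (log2 fold change 0.98 ± 0.040 SE; adjusted p = 1.08e-05 by limma), with all LACTB libraries far above all EV libraries. PPP1R15B (ENSG00000158615; chromosome 1, 204403387 to 204411791) was at 22.1, 24.01 and 20.6 FPKM with EV and at 22.5, 22.2 and 22.5 FPKM with LACTB. Its log2 fold change was 0.011 ± 0.057 SE (adjusted p = 0.900 by limma), with a 95% interval of -0.12 to 0.14, and over the alternatives it ranged from -0.039, without EV replicate 3, to 0.065. The ratio of PPP1R15A to PPP1R15B was 2.59 to 3.01 with EV and 5.30 to 5.65 with LACTB.

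The 250 bases before the RefSeq start (GRCh38.p14) are shown for this pair because only 1 of the 2 genes rose, and for PPP1R12C, a myosin phosphatase subunit that also rose, because its upstream stretch holds the same element as PPP1R15A. PPP1R12C was thus chosen after its call and its match were seen, and the call was lost in 4 of 15 alternative fits. Capitals mark the cAMP response element TGACGTCA, which binds factors of the CREB and ATF family, the C/EBP-ATF response element TGATGNAA, and the TATA box TATAAA. Both strands were searched.
PPP1R15A, chr19:48872171-48872420, plus strand: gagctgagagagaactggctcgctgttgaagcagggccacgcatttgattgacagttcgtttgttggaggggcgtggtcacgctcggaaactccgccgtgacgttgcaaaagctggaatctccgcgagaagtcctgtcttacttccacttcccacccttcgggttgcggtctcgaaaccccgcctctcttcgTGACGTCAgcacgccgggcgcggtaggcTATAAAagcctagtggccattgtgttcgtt
PPP1R15B, chr1:204411818-204412067, minus strand: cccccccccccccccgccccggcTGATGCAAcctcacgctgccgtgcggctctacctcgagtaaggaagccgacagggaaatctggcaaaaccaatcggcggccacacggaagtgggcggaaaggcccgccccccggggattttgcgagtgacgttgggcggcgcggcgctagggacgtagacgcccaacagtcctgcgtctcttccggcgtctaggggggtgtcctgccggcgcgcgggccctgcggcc
PPP1R12C, chr19:55117638-55117887, minus strand: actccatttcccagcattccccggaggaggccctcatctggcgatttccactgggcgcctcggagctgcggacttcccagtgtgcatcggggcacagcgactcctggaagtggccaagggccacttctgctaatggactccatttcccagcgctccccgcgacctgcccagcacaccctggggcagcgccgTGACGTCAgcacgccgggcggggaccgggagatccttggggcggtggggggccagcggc

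TGACGTCA began 58 bases before the start of PPP1R15A and 59 bases before that of PPP1R12C. Around it the 2 stretches shared a run of 22 identical bases, cgTGACGTCAgcacgccgggcg. Of the 34 subunit genes found in the promoter table, these 2 were the only ones with TGACGTCA in the window, which 1.77% of all 27305 promoters of that length hold. They are 2 of the 5 risen subunit genes in that table. TGATGNAA occurred in 3.19% of all promoters and, among the 34, in PPP1R15B alone. TATAAA occurred in 11.1% of all promoters and in 5 of the 34, PPP1R15A among them. The other motifs searched were TGACG (the core of the cAMP response element, so it overlaps it; 9 of 34, 21.7% of all), GGAATG (TEAD; 7 of 34, 11.9%), the interferon-stimulated response element (1 of 34, 3.07%), CCAAT (13 of 34, 33.0%) and TCACNCCAC (sterol regulatory element; 0 of 34, 0.875%). CCAAT stood upstream of 4 of the 6 fallen subunit genes that were in the table (PPP1R7, PPP1R14B, PPP1CC and PPP1R13L), of 5 of the 9 that did not pass, and of none of the 5 that rose. Of the fallen genes named, PPP1R7 lost its call in 11 of 15 alternative fits and PPP1R13L in 7. CCAAT was 1 of 8 motifs split in this way. GGAATG stood upstream of 2 that rose, 0 that fell and 0 that did not pass, and TGACG of 3, 1 and 3. For TATAAA the split was 1, 0 and 1, and for the interferon-stimulated response element 1, 0 and 0. The motif hits are matches of letters and not binding sites, and no difference was tested.

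Of 16 tested genes in a list of eIF2alpha, its kinases, its exchange factor and their outputs, 6 rose and 1 fell, with a median log2 fold change of 0.034. Over all genes tested, 14.8% rose and 17.2% fell. The list was chosen with earlier results of these data known, so its count is no independent check on the rise of PPP1R15A. All 6 that rose are outputs of the pathway, and the smallest p among them were those of SESN2, TRIB3 and CHAC1. SESN2, a stress sensor of the mTORC1 pathway, went from 7.86 ± 0.942 to 33.2 ± 0.901 FPKM, and TRIB3, a pseudokinase induced by ATF4, from 20.6 ± 1.23 to 53.9 ± 2.74 FPKM (SD, n = 3 each). CHAC1, which degrades glutathione, went from 2.50 ± 0.152 to 10.8 ± 1.251 FPKM. The other risen genes were the transcription factors ATF4 (1.65-fold), DDIT3 (2.23-fold) and ATF3 (1.73-fold). ASNS, also on the list, averaged under 1 FPKM and was not tested. It was at 0.212 to 0.309 FPKM with EV and 0.836 to 0.893 FPKM with LACTB. EIF2S1, which encodes eIF2alpha, did not pass (45.6 and 44.4 FPKM), nor did the kinases EIF2AK1, EIF2AK2, EIF2AK3 and EIF2AK4. EIF2B5, a subunit of the exchange factor, fell from 16.4 to 14.5 FPKM (adjusted p = 0.0256 by limma). That call was lost without any 1 library other than EV replicate 2 (adjusted p = 0.0595 to 0.0833).

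Of the 3 tested subunits that direct PP1 to myosin, PPP1R12C rose and the other 2 did not pass. PPP1R12A, or MYPT1, the targeting subunit of myosin phosphatase, was at 11.9, 13.6 and 11.5 FPKM with EV and at 11.8, 10.9 and 10.7 FPKM with LACTB. The groups overlapped; the log2 fold change of -0.14 ± 0.070 SE did not pass (adjusted p = 0.182 by limma), with a 95% interval of -0.30 to 0.028. PPP1R12C (ENSG00000125503; chromosome 19, 55090913 to 55117559), a close relative of MYPT1, was at 8.40, 7.92 and 7.07 FPKM with EV and at 9.13, 9.71 and 9.85 FPKM with LACTB. It rose 1.23-fold without overlap (log2 fold change 0.27 ± 0.065 SE; adjusted p = 0.0205 by limma). The call was lost without LACTB replicate 2 (adjusted p = 0.0709) or LACTB replicate 3 (0.0683). PPP1R16A, or MYPT3, did not pass: it was at 2.52 to 3.28 FPKM with EV and 2.81 to 4.04 FPKM with LACTB (log2 fold change 0.20; adjusted p = 0.240 by limma). Of its exon bases, 52.6% overlap AC084125.2 on the opposite strand. PPP1R12B, which is best known in muscle, lay under 1 FPKM and was not tested, at 0.594 to 0.650 FPKM with EV and 0.472 to 0.558 FPKM with LACTB. PPP1R16B had 1 read in all.

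PPP1R14B (ENSG00000173457; chromosome 11, 64244480 to 64246941), an inhibitor of myosin phosphatase of the CPI-17 family, had the highest mean level of all 45 genes. It was at 125.8, 113.4 and 133.3 FPKM with EV and at 92.3, 97.9 and 100.6 FPKM with LACTB. It fell 1.28-fold, without overlap (log2 fold change -0.35 ± 0.067 SE; adjusted p = 0.00773 by limma). In this gene 6.84% of the 100-base stretches also occur in its pseudogene PPP1R14BP3, which was itself at 38.5 to 41.6 FPKM with EV and 29.4 to 43.5 FPKM with LACTB, so reads may be divided between them. Summed over the gene and the pseudogene, the level was 152.0 to 173.9 FPKM with EV and 121.7 to 144.1 FPKM with LACTB, still without overlap. The other inhibitors of the family were low: PPP1R14C was at 0.691 to 1.19 FPKM in the 6 libraries, and PPP1R14A and PPP1R14D, with 2 reads each in all, lay near 0.

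Among 21 tested genes of a list on myosin light chain control, 2 rose and 3 fell, with a median log2 fold change of -0.020. Over all genes tested, 14.8% rose and 17.2% fell, so calls were no more frequent in this list. ARHGEF2, a microtubule-bound activator of RhoA, rose from 11.8 ± 0.134 to 22.7 ± 0.662 FPKM, and RND3, which opposes RhoA signalling, rose from 19.2 ± 0.826 to 31.9 ± 1.43 FPKM (SD, n = 3 each). MYH10, a non-muscle myosin heavy chain, fell 1.41-fold, and NUAK1, a kinase that phosphorylates MYPT1, fell 1.56-fold. The kinases ROCK1 and ROCK2, which oppose myosin phosphatase, did not pass, at 16.3 and 16.2 FPKM and at 12.2 and 12.2 FPKM.

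PPP1R18 (ENSG00000146112; chromosome 6, 30676389 to 30687895), or phostensin, which ties PP1 to actin filaments, rose most after PPP1R15A. It was at 23.6, 22.9 and 21.2 FPKM with EV and at 37.3, 38.8 and 39.6 FPKM with LACTB, 1.71-fold higher without overlap (log2 fold change 0.75 ± 0.051 SE; adjusted p = 0.000103 by limma). PPP1R9B, or spinophilin, which brings PP1 to actin-rich structures, was at 20.8, 19.1 and 19.6 FPKM with EV and at 19.4, 21.6 and 21.0 FPKM with LACTB. The groups overlapped (log2 fold change 0.055, 95% interval -0.074 to 0.18; adjusted p = 0.486 by limma). PPP1R9A, or neurabin, best known in neurons, lay under 1 FPKM on average and was not tested, at 0.693 to 1.04 FPKM in the 6 libraries.

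PPP1R11 (ENSG00000204619; chromosome 6, 30066709 to 30070333), or inhibitor-3, which binds the catalytic subunit together with PPP1R7, was at 17.2, 17.3 and 17.9 FPKM with EV and at 24.96, 22.6 and 24.1 FPKM with LACTB. It rose 1.37-fold without overlap (log2 fold change 0.43 ± 0.047 SE; adjusted p = 0.000808 by limma). PPP1R2, or inhibitor-2, was the most abundant of the classical inhibitors in the EV libraries, at 19.6, 20.7 and 19.8 FPKM, and was at 20.4, 22.02 and 20.7 FPKM with LACTB. The groups overlapped (log2 fold change 0.068, 95% interval -0.039 to 0.17; adjusted p = 0.300 by limma). With LACTB the 3 libraries of PPP1R11 lay above the 3 of PPP1R2, the reverse of their order with EV. PPP1R1A and PPP1R1C, inhibitor-1 and its relative, were listed at 0 in every library, and PPP1R1B, or DARPP-32, and PPP1R17, a substrate of cGMP-dependent kinase, had at most 4 reads in all. The inhibitors that cAMP- or cGMP-dependent kinases switch on were therefore at or near 0 in both groups.

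Of the 3 nuclear and conserved regulators, 1 fell and 2 did not pass. PPP1R8, or NIPP1, a nuclear inhibitor linked to splicing, was at 26.8, 26.3 and 27.4 FPKM with EV and at 25.8, 26.2 and 26.2 FPKM with LACTB (log2 fold change -0.041, 95% interval -0.13 to 0.044; adjusted p = 0.431 by limma). Under quantile normalization its log2 fold change was 0.013. PPP1R10, or PNUTS, which acts in transcription termination, was at 14.5 to 15.4 FPKM with EV and 13.3 to 14.1 FPKM with LACTB. Its log2 fold change was -0.12, with a 95% interval, not adjusted for the genes tested, of -0.22 to -0.018 (adjusted p = 0.0751 by limma). Neither gene's groups overlapped, but neither passed. PPP1R7 (ENSG00000115685; chromosome 2, 241149576 to 241183652), or SDS22, a partner of newly made catalytic subunit, was at 13.6, 12.4 and 14.4 FPKM with EV and at 12.1, 11.4 and 11.5 FPKM with LACTB. It fell from a mean of 13.5 to 11.7 FPKM, with a p close to the threshold (log2 fold change -0.19 ± 0.061 SE; adjusted p = 0.0492 by limma). The call was kept without EV replicate 2 (adjusted p = 0.0218) and lost without EV replicate 1 (0.120), EV replicate 3 (0.110) or LACTB replicate 1 (0.0673), 2 (0.145) or 3 (0.128). It was also lost as TPM, at 0.212, and on recovered reads (voom), at 0.0746. PPP1R7 shares 11.7% of its 100-base stretches with PASK, which overlaps it on the opposite strand.

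In the ASPP family, which binds p53, PPP1R13L, or iASPP, an inhibitor of p53, was at 13.9, 12.1 and 10.9 FPKM with EV and at 8.74, 9.89 and 10.1 FPKM with LACTB (ENSG00000104881; chromosome 19, 45379634 to 45406349). It fell 1.29-fold, and its nearest libraries were 10.9 and 10.1 FPKM (log2 fold change -0.33 ± 0.091 SE; adjusted p = 0.0320 by limma). The call was lost without any 1 library other than EV replicate 3: the adjusted p was 0.0700 without EV replicate 1, 0.0735 without EV replicate 2 and 0.0918, 0.0702 and 0.0559 without LACTB replicates 1, 2 and 3. PPP1R13B, or ASPP1, which promotes p53 activity, did not pass, at 1.82 to 2.21 FPKM with EV and 1.77 to 2.08 FPKM with LACTB.

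Glycogen targeting subunits were low throughout, and the most abundant of them had the largest fall of all 24 tested subunit genes. PPP1R3B (ENSG00000173281; chromosome 8, 9136255 to 9151574), the targeting subunit known from liver, was at 4.19, 4.13 and 4.07 FPKM with EV and at 2.22, 2.39 and 2.48 FPKM with LACTB. It fell 1.75-fold without overlap (log2 fold change -0.61 ± 0.055 SE; adjusted p = 0.000360 by limma), on 1283 and 728 reads summed over each group. PPP1R3D was at 1.27 to 1.47 FPKM in the 6 libraries and did not pass (adjusted p = 0.789 by limma). PPP1R3C, known as protein targeting to glycogen, PPP1R3E, PPP1R3F and PPP1R3G lay under 1 FPKM and were not tested, and PPP1R3A, the muscle form, was listed at 0 in every library.

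Of 15 tested genes of glycogen metabolism, 1 rose and 3 fell, with a median log2 fold change of 0.0035. Over all genes tested, 14.8% rose, 17.2% fell and 32.0% were called in either direction. Calls in either direction were no more frequent in this list. GYS1, the glycogen synthase that PP1 activates, fell from 13.7 to 11.002 FPKM (adjusted p = 0.0266 by limma). PGM1, a phosphoglucomutase, fell 1.22-fold, PHKA2, a subunit of phosphorylase kinase, fell 1.23-fold, and PGM2 rose 1.10-fold. None of these 4 calls was stable when single libraries were left out. That of GYS1 was lost without any 1 library other than EV replicate 3 (adjusted p = 0.0523 to 0.0888), that of PGM2 likewise (0.0733 to 0.141) and that of PHKA2 without any 1 of the 6 (0.0666 to 0.101). That of PGM1 was lost without EV replicate 1 or 2 or LACTB replicate 1 or 3 (0.0610 to 0.0734).

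The remaining regulatory subunits tested were PPP1R26, PPP1R21, PPP1R37 and PPP1R35. PPP1R26 (ENSG00000196422; chromosome 9, 135479079 to 135488893) was at 16.6, 15.4 and 14.9 FPKM with EV and at 17.9, 19.9 and 19.3 FPKM with LACTB. It rose 1.22-fold without overlap (log2 fold change 0.27 ± 0.057 SE; adjusted p = 0.0114 by limma). PPP1R35 (ENSG00000160813; chromosome 7, 100435282 to 100436565), a centriole protein, was at 4.31, 4.32 and 3.74 FPKM with EV and at 3.26, 2.84 and 2.998 FPKM with LACTB. It fell 1.36-fold without overlap (log2 fold change -0.34 ± 0.070 SE; adjusted p = 0.0102 by limma), on 263 and 192 reads summed over each group. On recovered reads (voom) its adjusted p was 0.0657, and 41.0% of its exon bases overlap other genes on the opposite strand. PPP1R21, of an endosomal complex, and PPP1R37 did not pass, at 5.06 to 5.76 FPKM and 3.83 to 4.91 FPKM in the 6 libraries.

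**Figure D3:**
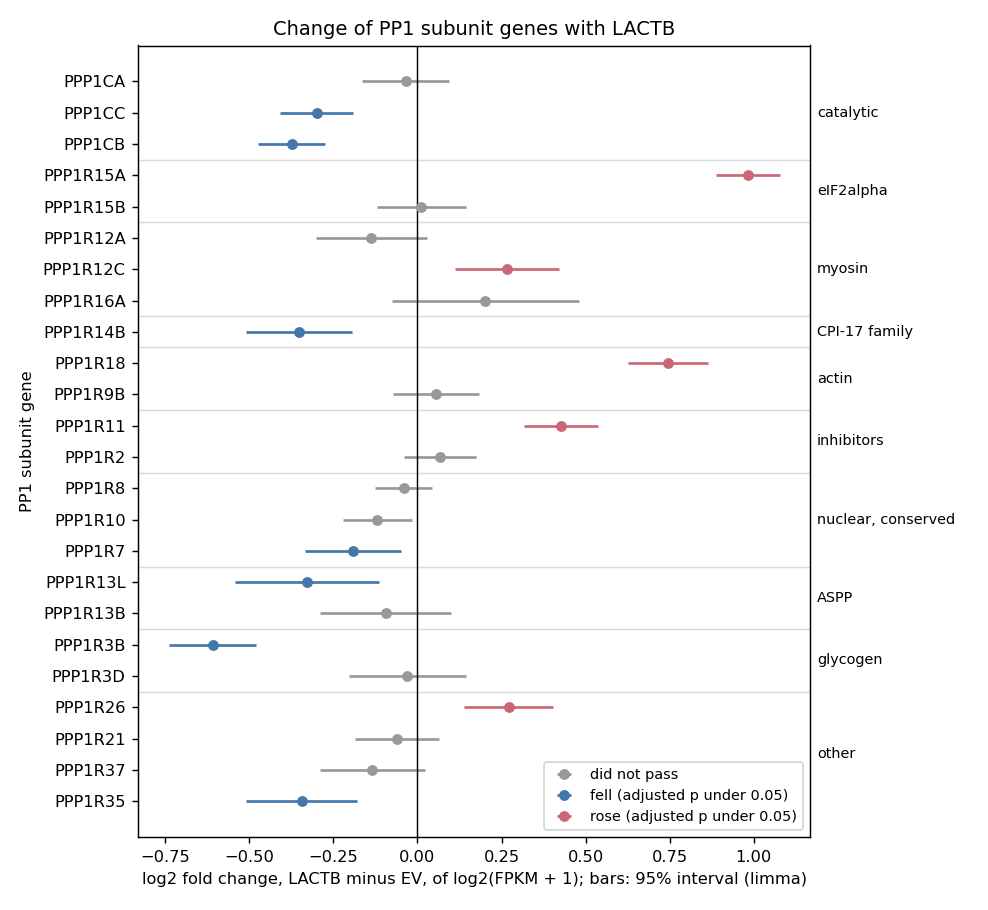
Log2 fold change (LACTB minus EV, on log2(FPKM + 1)) of the 24 tested PP1 subunit genes by role; bars are limma 95% intervals and colours mark the 5 that rose, the 7 that fell and the 12 that did not pass. Within a role, members differed, such as PPP1R15A at 0.98 beside PPP1R15B at 0.011.

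The 21 genes that were not tested averaged under 1 FPKM. Beside those named above they were PPP1R2B, PPP1R2C, PPP1R27, PPP1R32, PPP1R36 and PPP1R42, of which PPP1R32 had the highest value in any library (0.616 FPKM). The groups did not overlap in PPP1R12B, PPP1R3F (0.370 to 0.409 FPKM with EV, 0.424 to 0.666 FPKM with LACTB) and PPP1R42 (0 and 5 reads summed over each group). The share without overlap over all genes under 1 FPKM was not computed, so no result is read from them. Of the 21 genes, 4 were listed at 0 in all libraries (PPP1R1A, PPP1R1C, PPP1R2C and PPP1R3A), and 11, these 4 included, had fewer than 10 reads in all libraries together. Summed over all 42 regulatory subunits, the level was 411.1 to 428.2 FPKM with EV and 460.4 to 484.0 FPKM with LACTB. The mean rise of PPP1R15A alone, from 61.9 to 123.2 FPKM, was larger than that of the sum, from 421.1 to 474.2 FPKM.

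Of 23 tested genes in a list of proteins that bind PP1 without a PPP1R symbol, 7 fell and 0 rose, with a median log2 fold change of -0.066; 17.2% of all genes tested fell and 14.8% rose. The 3 with the smallest p act on chromosomes in mitosis. MKI67, the Ki-67 antigen, went from 33.5 ± 1.54 to 23.5 ± 0.954 FPKM, CDCA2, or Repo-Man, from 18.7 ± 0.288 to 14.6 ± 0.107 FPKM, and KNL1, the kinetochore docking protein for PP1, from 15.8 ± 0.298 to 12.4 ± 0.550 FPKM (SD, n = 3 each). The other 4 that fell were PHACTR2, SH3RF2, WDR82 and CEP192. The call of CEP192 was lost without EV replicate 2 or 3 or LACTB replicate 2 or 3 (adjusted p = 0.0964 to 0.126). TP53BP2, or ASPP2, the third ASPP member, did not pass. Among the 8 tested catalytic subunits of other phosphatases of the PPP family, 1 rose and 2 fell, with a median log2 fold change of -0.051. PPP3CA of calcineurin fell 1.26-fold (adjusted p = 0.00483 by limma), while PPP3CB of calcineurin rose from 11.8 to 13.7 FPKM and PPP4C fell 1.10-fold. The call of PPP3CB was lost without EV replicate 1 (adjusted p = 0.0589) or LACTB replicate 2 (0.0690), and that of PPP4C without any 1 library other than EV replicate 2 (0.0753 to 0.107). The PP2A catalytic genes PPP2CA and PPP2CB did not pass, at 41.2 and 37.6 FPKM and at 24.5 and 26.0 FPKM.

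**Figure D4:**
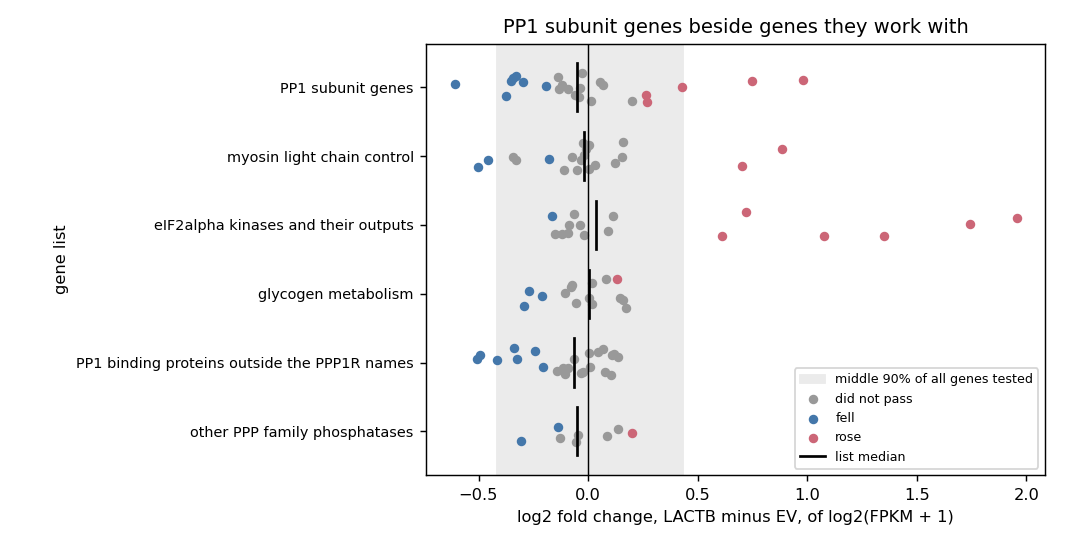
Log2 fold change (LACTB minus EV, on log2(FPKM + 1)) of each tested gene in the PP1 subunit set and in 5 lists of genes that work with them; each point is 1 gene, black lines are list medians and the grey band holds the middle 90% of all 11875 genes tested (-0.42 to 0.43). PPP1R15A, PPP1R18 and PPP1R3B lie outside the band, as do the 6 risen genes of the eIF2alpha list.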

How the data were processed

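RNA from 3 EV and 3 LACTB samples was sequenced as paired-end reads on a NovaSeq, per the labels' protocols. The submitters' processing notes name GRCh38 (hg38), DESeq2 1.16.1, featureCounts 1.5.0-p3 and HISAT2 2.0.5 without their roles. How strand and multi-mapping reads were handled, and which annotation was counted, is not given in the sources used here. The authors deposited FPKM values, 1 file per library. All 58735 gene IDs matched GENCODE 29 (GRCh38). FPKM times exon length gave whole reads for 100% of values above 0 (tolerance 0.1 reads), so library depths were recovered. FPKM uses all annotated exons, so levels of different genes compare only roughly.

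Tests used limma 3.58.1 in R 4.3.3 (eBayes with trend) on log2(FPKM + 1), for the 11875 genes averaging 1 FPKM or more, called at a Benjamini-Hochberg adjusted p under 0.05; fold changes on this scale understate the change of low genes, and a number of times is the ratio of mean FPKM. Shares used exact permutation tests (scipy 1.17.1). The fit was tested on simulated counts with a single fixed spread between replicates and far fewer changed genes than were called here. That run gives no error rate for these data. No 2 libraries of a group agreed within sampling noise (chi-square per degree of freedom 2.02 to 12.4). Alternatives were another pseudocount (0.1), no filter, a minimum average of 5 FPKM, median-of-ratios, TPM and quantile scaling, no trend, a replicate block, a threshold of 0.01 and each library left out. Voom on recovered reads, scaled by library totals, was added after seeing the data in place of a fit with trimmed-mean factors, which was not run. Members and lists were chosen with earlier results of these data known. Per-library values were given for catalytic subunits, subunits with an adjusted p under 0.05 and the most abundant of each role; of each other list, up to 3 risen and 3 fallen genes with the smallest p were named, and further genes named were chosen after their values were seen. The result of 1 gene of the myosin list is not reported here. Promoter sequences are RefSeq's (GRCh38.p14).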

Additional observations from a re-analysis of the deposited data

How the results depend on the processing

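Of the 12 subunit genes called, 8 (PPP1R15A, PPP1R18, PPP1R11, PPP1R26, PPP1CB, PPP1CC, PPP1R14B and PPP1R3B) kept their call and direction in each of the 15 alternative fits that tested them, PPP1R3B in 14. PPP1R7 lost it in 11, PPP1R13L in 7, PPP1R12C in 4 and PPP1R35 in 1. The median-of-ratios fit nearly repeated the main fit. It shifted the median log2 fold change by 3.4e-06, so it could hardly change a call. With every gene above 0 tested, the adjusted p was 0.0654 for PPP1R12C, 0.108 for PPP1R13L and 0.124 for PPP1R7. No subunit gene that had not passed gained a call in these fits. Leaving out single libraries gave 4 to 5 risen and 5 to 6 fallen subunit genes, and 1115 to 1505 risen and 1388 to 1800 fallen among all genes; the 1115 came without LACTB replicate 2. At an adjusted p under 0.01, 3 subunit genes rose and 4 fell, and of all genes 847 rose and 1004 fell. Libraries with the same replicate number did not deviate together (r = -0.13, 0.019 and -0.044 across genes), and no library correlated best with its own number. With a replicate block, 4 subunit genes rose and 5 fell, and of all genes 1155 rose and 1324 fell; in the lists, 0 of the eIF2alpha genes fell, 0 rose and 1 fell for glycogen, and 0 rose and 1 fell for other PPP phosphatases. As TPM, 1295 of all genes fell. The eIF2alpha list then had 7 risen and 0 fallen, glycogen 0 risen and 1 fallen, and other PPP phosphatases 0 risen and 1 fallen. The summed catalytic level differed by -61.1 in TPM, whose values are larger by construction, against -18.7 in FPKM. With a pseudocount of 0.1, 2 eIF2alpha genes fell. At a mean of at least 5 FPKM, 1155 of all genes rose, from fewer genes tested. The PPP1CA share difference was 3.76 to 5.73 percentage points without single libraries. The cause of each change was not tested, other than fewer genes or samples where named. Depth limits the 11 subunit genes with fewer than 10 reads in all, in which a difference was not detectable. Voom with trimmed-mean factors was not run.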
